A study of Arabidopsis thaliana with 21 samples.

Results

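The NAC genes of Arabidopsis thaliana encode plant transcription factors, and 77 of them were set against maps of a Polycomb protein, of a Polycomb mark and of a pair of DNA-binding factors. Members were the nuclear protein-coding genes whose symbol is NAC followed by digits, without 7 boundary and root cap genes (CUC1, CUC2, CUC3, SMB, FEZ, NAC015 and NAC070). They are 77 of 27444 nuclear protein-coding genes. Assignment used a window of the gene and 1 kb on either side: the summit of an enriched FIE, AZF1 or BPC1 region had to fall inside the window, while for H3K27me3 any touching region counted. The family and its contrasts were chosen by these same assignments and folds, so they are given as a description beside the share of all protein-coding genes, with no test, and nothing is read from the difference.

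NAC proteins share a DNA-binding domain at the amino-terminal side, followed by variable regulatory parts. Members are known for switching on the secondary walls of xylem vessels and fibres, for the maturation of phloem sieve elements, for leaf senescence, and for responses to abscisic acid, drought, DNA damage and organelle stress. Polycomb repressive complex 2 (PRC2) writes H3K27me3, the trimethylated form of lysine 27 on histone H3, a mark found on genes that are held silent in tissues where they are not used. FIE is a WD40 subunit of PRC2. AZF1 belongs to the C2H2 zinc fingers. BPC1 is a BASIC PENTACYSTEINE protein of a family that binds GA repeats.

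Chromatin immunoprecipitation with sequencing was made on untreated whole plants aged 30 h, grown on plates under 16 h of light and 8 h of dark, in 21 samples forming 7 groups of 3 biological replicates. FIE ChIP and its input came from C24 plants that carry pFIE:FIE-HA in the fie-11 mutant. AZF1 ChIP and the Col input came from Col plants with gAZF1-Myc, and BPC1 ChIP from Col plants with gBPC1-Myc. The lists do not name their controls, so which sample group stands behind each fold is not known. If the Col input served for BPC1, that control came from the other transgenic line. H3K27me3 and total histone H3 were profiled in Col plants without a transgene. FIE was thus mapped in another accession than the mark and the factors. The deposited data are 4 lists of regions, 1 for each protein and 1 for the mark. They give nothing for single samples, so no spread between replicates can be stated. Fold enrichments are the authors' own values against a control, and folds from different lists are not on a common scale. Read counts are not in the lists, which leaves depth unknown. A gene in no list may still carry signal under the deposited limit, a −log10 q of 10. In whole plants, few strongly marked cells and many weakly marked cells cannot be told apart.

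Of the 77 NAC genes, 21 were assigned to FIE (27.3%), against 9.33% of all protein-coding genes. H3K27me3 took in 32 (41.6%), against 27.3%. AZF1 took in 12 (15.6%), against 9.88%, and BPC1 took in 9 (11.7%), against 5.87%. FIE and H3K27me3 together were found at 16 members (20.8%), against 6.18%. AZF1 and BPC1 together were found at 7 (9.09%), against 3.45%, and all 4 lists at 6 members (7.79%), against 1.13%. H3K27me3 without any of the proteins was found at 15 members (19.5%), close to the 18.9% of all genes. The other end of the family was larger: 37 members (48.1%) were in no list, against 63.1% of all genes. With only the regions above the median −log10 q of their own list, 14 members were in FIE (18.2%, against 4.74% of all genes), 21 in H3K27me3 (27.3%, against 15.7%) and 10 of the 77 in both (against 2.78%). AZF1 then took in 3 members (3.90%), below the 4.42% of all genes, BPC1 took in 4 (5.19%, against 2.81%), all 4 lists 1 (1.30%, against 0.437%), and 51 were in no list (66.2%, against 78.7%). NAC genes had a median length of 1921 bp, against 2078 bp for all genes. None of the members (0 of 77) lay in the 1 Mb windows with fewer than 100 protein-coding genes, where 2.54% of all genes lie.

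The MYB and WRKY families, taken by the same kind of symbol, give a scale for these shares. FIE was assigned to 24 of 115 MYB genes (20.9%) and 26 of 67 WRKY genes (38.8%), with the NAC share between them. H3K27me3 was assigned to 74 MYB genes (64.3%) and 35 WRKY genes (52.2%), both above the NAC share of 41.6%. AZF1 was assigned to 15.7% of MYB and 13.4% of WRKY genes, and BPC1 to 14.8% and 14.9%. Of genes with H3K27me3, FIE was at 28.4% in the MYB family, at 62.9% in the WRKY family and at 16 of the 32 NAC genes. These family differences were not tested.

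**Figure D1:**
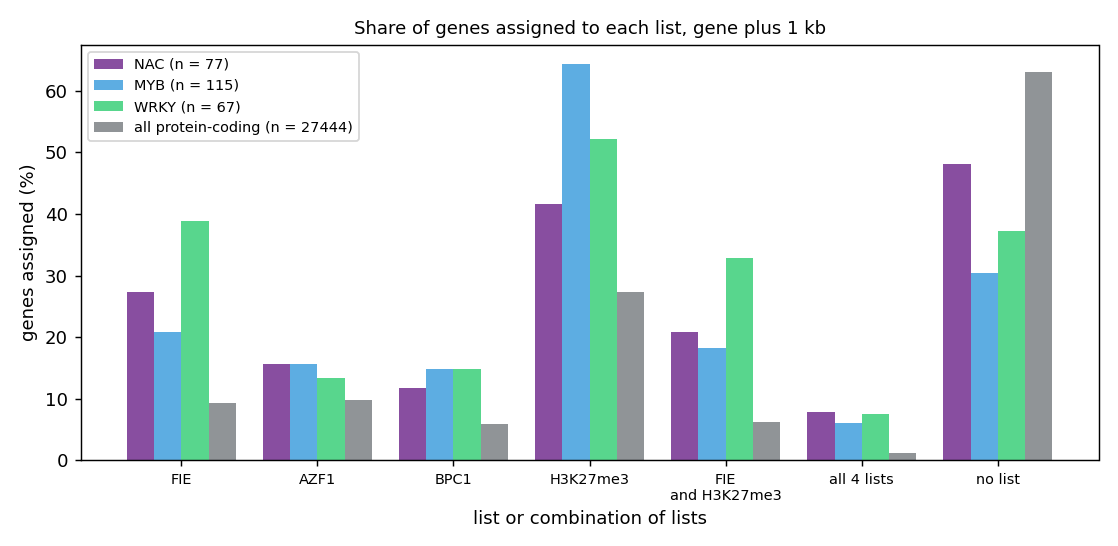
Share of genes (%) assigned to each list or combination, for NAC genes, MYB genes, WRKY genes and all nuclear protein-coding genes; bars start at 0 and carry no error since each list is a single pooled set. NAC genes stand above all genes in each of the 4 lists (27.3% against 9.33% for FIE), and below both other families for H3K27me3.

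The strongest member in every list was NAC067 (AT4G01520), for which no function is given here. Its FIE region of highest fold reached 15.9 (chromosome 4, 658915 to 659447; TAIR10), at percentile 99.8 of the nuclear FIE regions, and a second FIE region beside it reached 7.66. AZF1 at the same place had a fold of 5.13 and BPC1 6.80, each at percentile 99.8 of its list. The H3K27me3 region around it was 9952 bp wide with a fold of 3.86, at percentile 98.6, and touched no other protein-coding gene. The summits of AZF1 and BPC1 fell on the same base, 22 bp from the FIE summit. NTM1 (AT4G01540), a membrane-tethered NAC gene outside the symbol rule, was in FIE (6.25), AZF1 (2.35) and H3K27me3 without BPC1, and the mark did not touch the gene itself. NAC069 (AT4G01550), also membrane-tethered, was in no list, with its nearest FIE summit 1674 bp away.

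**Figure D2:**
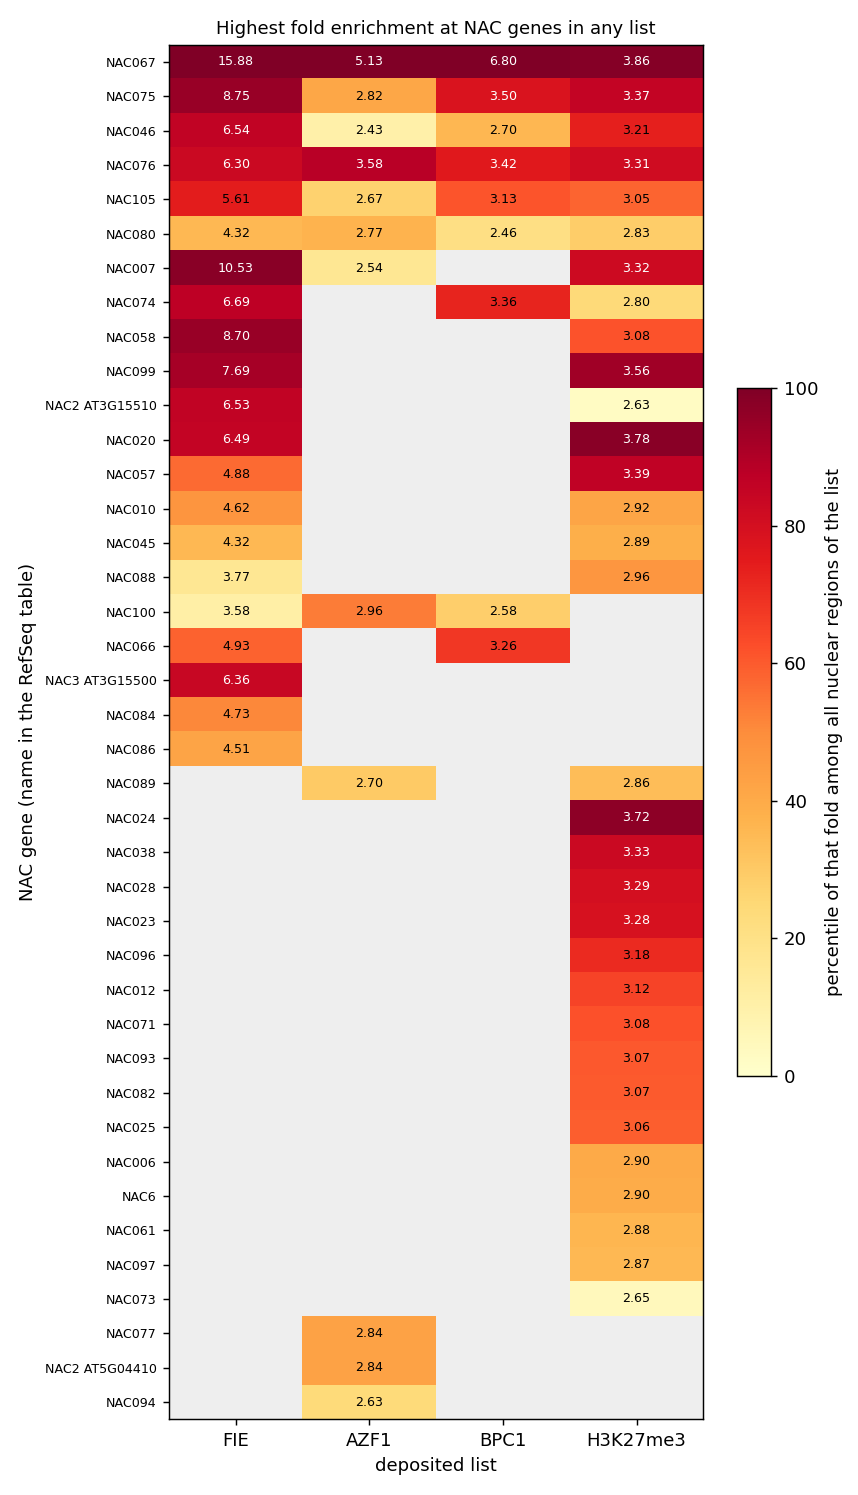
Highest fold enrichment at each of the 40 NAC genes found in any list (rows) in the 4 deposited lists (columns); numbers are the authors' folds, the colour is the percentile of that fold within its own list, and grey marks no assignment. NAC067 is dark in all 4 columns, and 15 genes have H3K27me3 and nothing else.

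Regulators of xylem vessels and fibre walls formed the longest functional list. Of its 15 loci, 11 were assigned to FIE (9.33% of all genes are), 12 to H3K27me3 (27.3%) and 10 to both (6.18%). BPC1 took in 6 (5.87% of all genes) and AZF1 took in 5 (9.88%). Of the 15, 10 carry a NAC symbol, and 6 of those were in FIE and 7 in H3K27me3. Since the list was drawn up with results of these data known, its counts are no independent evidence.

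The VASCULAR-RELATED NAC-DOMAIN (VND) genes, which direct vessel differentiation, all carried both FIE and the mark except NAC101. Of all genes, 6.18% carry both. NAC007 (VND4) had the second highest FIE fold of the family, 10.5 (chromosome 1, 4165230 to 4166654), at percentile 97.7. That summit lay 87 bp outside the gene, while a weaker FIE region of fold 3.76 inside it was the one that met AZF1 (2.54). The H3K27me3 region at NAC007 was 9619 bp wide. NAC076 (VND2) was in all 4 lists, with folds of 6.30 for FIE, 3.58 for AZF1, 3.42 for BPC1 and 3.31 for H3K27me3. A further FIE region of fold 4.64 lay inside NAC076. The strongest summits of all 3 proteins lay 38 to 51 bp outside it, and each of these regions was also assigned to the neighbour AT4G36170. NAC105 (VND3) was in all 4 lists as well, with 5.61, 2.67, 3.13 and 3.05. NAC101 (VND6) was the exception among the VND genes with a NAC symbol, being in no list. The VND genes listed under other symbols were VND1 (FIE 6.21), ANAC026 (VND5; FIE 6.50 and BPC1 2.94) and VND7 (FIE 6.69 and AZF1 3.11). Each of these 3 had its whole gene inside H3K27me3.

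NAC075, a gene that acts above VND7 in vessel formation, had the most FIE summits of any member. There were 4 inside the gene, the highest with a fold of 8.75 in a region 2056 bp wide (chromosome 4, 14409348 to 14411403). NAC075 was also the longest member, at 5710 bp against a median of 1921 bp. Its AZF1 regions numbered 2, with folds of 2.82 and 2.53, and BPC1 (3.50) met only the strongest FIE region. The 7167 bp H3K27me3 region covered the gene and no other.

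Genes for fibre and other secondary walls were more mixed. NST1 (AT2G46770), a fibre wall switch outside the symbol rule, had an FIE fold of 12.2 and a BPC1 fold of 3.89 within H3K27me3. Its close partner NAC012 (NST3, also SND1) lay wholly within an 8345 bp H3K27me3 region and had no FIE summit within 20 kb, the nearest being 20606 bp away. NAC066 (NST2), which thickens anther walls, showed the reverse. It had FIE (4.93) and BPC1 (3.26) without the mark, both summits 764 to 780 bp outside the gene. NAC010 (SND3) had FIE (4.62) within the mark, and NAC073 (SND2) the mark alone, at a fold of 2.65. NAC083 (VNI2), a repressor that binds VND7, was in no list, whereas XND1, another negative regulator of xylem, had FIE (3.53) and the mark.

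All 3 phloem loci were in FIE (9.33% of all genes are), and 0 were in AZF1 or BPC1. Lacking a factor is common, since 25.7% of all FIE genes had AZF1 and 30.2% had BPC1. Nothing is read from so few loci. NAC020, an early gene of protophloem sieve elements, had an FIE fold of 6.49 at a summit 171 bp outside the gene, and its H3K27me3 fold of 3.78 was the second highest of the family. NAC045 and NAC086, which act in the removal of the sieve element nucleus, had FIE folds of 4.32 and 4.51. The mark covered 82.6% of NAC045 and was absent from the list at NAC086.

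Among targets of the microRNA miR164 other than CUC1 and CUC2, which were left out, NAC080 and NAC100 both had FIE, AZF1 and BPC1. At NAC080 FIE reached 4.32, AZF1 2.77 and BPC1 2.46, and at NAC100 the folds in that order were 3.58, 2.96 and 2.58. These FIE regions were narrow, 192 bp at NAC080 (chromosome 5, 2436776 to 2436967) and 112 bp at NAC100 (chromosome 5, 24701716 to 24701827), and their folds were low for the list, at percentiles 35.3 and 10.5. All 3 proteins had their summits inside the gene at both loci. NAC080 counted as marked through an H3K27me3 region of only 169 bp at the same spot and another outside the gene, so 9.05% of the gene was covered, and NAC100 had no H3K27me3. The other targets on this list differed. NAC6 (AT5G39610, also ORE1), a main regulator of leaf senescence, lay within a 14308 bp H3K27me3 region and had no FIE summit within 120 kb, the nearest being 120485 bp away. NAC1, which promotes lateral roots in response to auxin, was in no list.

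Of 7 senescence loci, NAC6 among them, 4 were in no list (63.1% of all genes are) and 1 was in FIE (9.33%). That one, NAC046, which promotes chlorophyll breakdown, was in all 4 lists with folds of 6.54 for FIE, 2.43 for AZF1, 2.70 for BPC1 and 3.21 for H3K27me3. It had 3 FIE summits inside the gene, and the middle one met both factors. NAC3 at AT3G29035 (ORS1), NAC042 (JUB1), which delays ageing, and NAC016 were in none, and neither was NAP. ANAC087, outside the symbol rule, had the mark alone.

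Of 8 loci of the ATAF and RD26 type, which act in abscisic acid, drought and wound responses, 0 were assigned to H3K27me3 (27.3% of all genes are), 1 to FIE (9.33%) and 1 to AZF1 (9.88%), and 6 were in no list (63.1%). Counts this small do not set these loci apart from genes in general. The FIE gene was NAC3 at AT3G15500 (ANAC055), with a fold of 6.36 and a region of 838 bp, the highest FIE fold of any member without the mark. NAC019, NAC032, NAC047 and NAC102 were in no list, like ATAF1 and RD26, while ATAF2 had AZF1 (2.69). The DNA damage genes NAC044, NAC085 and NAC103, with SOG1, were all in no list (4 of 4 loci), as are 63.1% of all genes. The same held for NAC050 and NAC052, partners of the histone demethylase JMJ14.

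Membrane-tethered members, whose proteins are released from membranes under stress, were in FIE in 0 of 9 cases and in no list in 7 of 9, where all genes stand at 9.33% and 63.1%. AZF1 was at NAC089 (2.70), which acts in stress of the endoplasmic reticulum, and at NAC2 at AT5G04410 (2.84). The latter assignment came through a summit 987 bp outside the gene and inside its neighbour NAC077. NAC089 counted as marked through a region 202 bp away that did not touch the gene. NAC13 and NAC017, which act in mitochondrial stress signalling, and NAC016, NAC053, NAC060, NAC062 and NAC069 were in no list, like NTL9 and TIP. With genes outside the symbol rule, FIE was at 2 of the 13 loci of this list, NTM1 and NTL8 (5.52), so the list does not stand below all genes.

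Seed and flower genes completed the functional lists. NAC2 at AT3G15510 (NARS1), which acts in seed coat development, had FIE (6.53) in an H3K27me3 region of low fold (2.63), and its partner NAM (NARS2) had FIE (5.68) without the mark. NAC025 had the mark alone, with its nearest FIE summit 97618 bp away. NAC074 (KIR1), which ends the life of stigma cells, had FIE (6.69) and BPC1 (3.36) in the widest H3K27me3 region of the family, 17719 bp. LOV1, a gene of flowering and cold response outside the symbol rule, had nearly the same folds, 6.69 for FIE and 3.52 for BPC1.

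The remaining FIE members have no role given here. NAC058 reached 8.70 at a summit 595 bp outside the gene and NAC099 reached 7.69, both above the member median, while NAC057 reached 4.88. All 3 had the mark and neither factor. NAC084 (4.73) had FIE alone and NAC088 (3.77) had FIE within the mark. Over all 21 FIE members the median of the highest fold was 6.30, against 4.78 for all 2560 FIE genes, and 9 members (42.9%) had 2 or more FIE summits, against 28.6%. An FIE summit lay inside the gene at 16 of the 21 (76.2%), against 62.6%. The same held for AZF1 at 10 of 12 members (83.3%), against 64.9%, and for BPC1 at 7 of 9 (77.8%), against 68.9%. NAC075 alone had 2 AZF1 summits (1 of 12, against 7.56%), and NAC067 alone 2 BPC1 summits (1 of 9, against 19.2%).

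**Figure D3:**
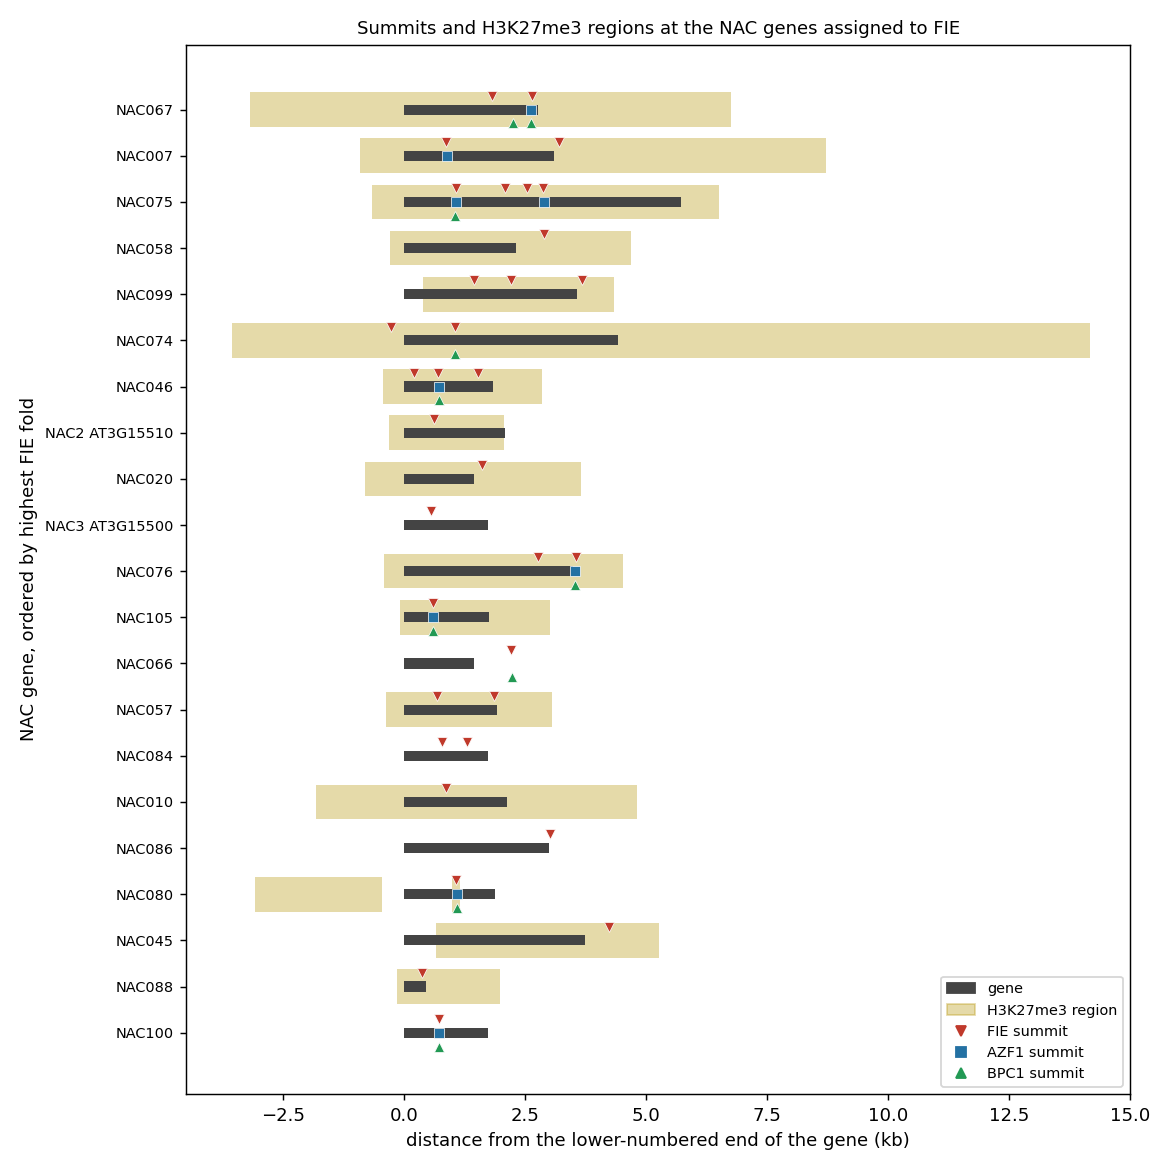
Position of FIE, AZF1 and BPC1 summits (symbols) and H3K27me3 regions (wide bars) at the 21 NAC genes assigned to FIE, in kb from the lower-numbered end of each gene, since strand was not used; genes are ordered from the highest FIE fold at the top. At every gene shown with a factor, a summit of it stacks on an FIE summit, NAC067 having a further BPC1 summit apart from these, and 5 genes have no H3K27me3 bar.

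Most but not all FIE members also had the mark. Of the 21 FIE members 16 had H3K27me3 (76.2%), against 66.2% of all, 87.5% of MYB and 84.6% of WRKY genes in FIE. At these 16 every FIE region overlapped an H3K27me3 region. Such overlap is favoured by the assignment, which required an FIE summit in the gene's window and a mark region touching that same window. The share over all genes with both was not computed, so nothing is read from this count. FIE without the mark was found at 6.49% of the family, against 3.15% of all genes. These 5 were NAC3 at AT3G15500, NAC066, NAC084, NAC086 and NAC100. FIE folds had a median of 6.51 with the mark (3.77 to 15.9) and 4.73 without it (3.58 to 6.36), and the ranges overlapped. Over all genes the medians were 5.05 and 4.49.

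Read from the mark, 16 of 32 marked members had FIE, against 22.6% of all marked genes. The other 16 are 20.8% of the family, against 21.1% of all genes with the mark and no FIE. They were far from FIE in most cases, with a median distance of 21035 bp to the nearest FIE summit and a range from 1644 bp at NAC028 to 139622 bp at NAC093. NAC028 was the one of these 16 whose H3K27me3 region held an FIE summit. The highest-fold H3K27me3 regions of members with FIE had a median width of 4532.5 bp (2137 to 17719), against 3568 bp (200 to 14308) without FIE, and the groups overlapped almost throughout. Fold differed as little, with medians of 3.15 and 3.07.

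The mark usually covered the whole gene. Of 32 marked members 23 (71.9%) were covered from end to end, against 43.1% of all marked genes, and 26 (81.2%) over at least 50% of their length, against 57.1%. Marked MYB and WRKY genes stood higher, at 74.3% and 80.0% from end to end and 89.2% and 91.4% over at least 50%. Among members that also had FIE, 12 of 16 were covered from end to end, against 58.6% of all, 85.7% of MYB and 77.3% of WRKY genes. At 4 members the region only came near the gene (12.5%), against 29.4% of all, 9.46% of MYB and 2.86% of WRKY marked genes. These 4 members were NAC071, which acts in tissue reunion after cutting, NAC082, NAC089 and NAC093. Of the 28 members with H3K27me3 on the gene, 14 shared the region with no other protein-coding gene. The share of this over all marked genes was not computed. The largest number of genes touched was 5, at NAC024.

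**Figure D4:**
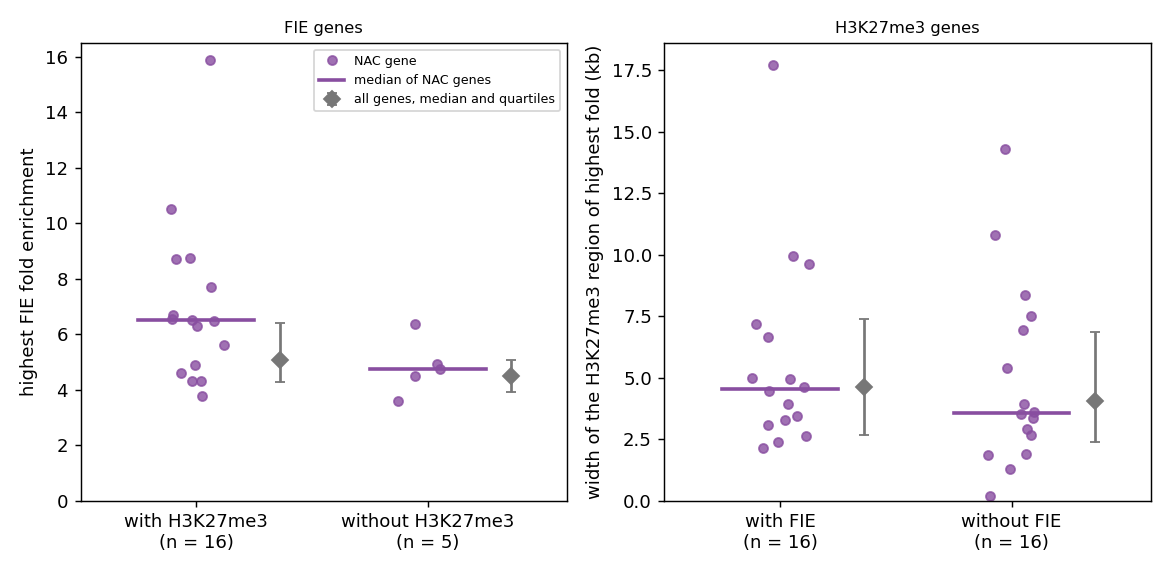
Left, highest FIE fold enrichment of NAC genes with and without H3K27me3; right, width in kb of the highest-fold H3K27me3 region of NAC genes with and without FIE. Points are genes, lines are their medians, and grey diamonds with bars give the median and quartiles over all protein-coding genes; points of the paired groups overlap in both panels.

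Both factors were found mainly where FIE was. All 9 BPC1 members were in FIE, against 48.0% of BPC1 genes, and 8 of 12 AZF1 members were (66.7%), against 24.3%. The overlap was not particular to NAC genes: 10 of 10 WRKY and 12 of 17 MYB genes (70.6%) with BPC1 were in FIE. With AZF1 the shares in FIE were 55.6% for WRKY and 38.9% for MYB genes. The 4 AZF1 members without FIE were NAC077, NAC2 at AT5G04410, NAC089 and NAC094, and NAC077 and NAC2 owed it to one shared region. BPC1 was at 7 of the 12 AZF1 members (58.3%), against 34.9% of AZF1 genes. Of the 21 FIE members 9 had BPC1 (42.9%, against 30.2%), 8 had AZF1 (38.1%, against 25.7%) and 11 had neither. The share of all FIE genes with neither was not computed, so nothing is read from the 11. The mark was at 6 of the 7 members with all 3 proteins (85.7%), against 70.4%, the exception being NAC100. FIE folds had a median of 6.30 with BPC1 (n = 9) and 5.62 without it (n = 12), with overlapping ranges, and over all genes the medians were 5.64 and 4.64.

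Counted by region, all 10 BPC1 regions at members overlapped FIE (53.1% of all BPC1 regions do), 7 overlapped AZF1 (55.6%) and 8 the mark (41.5%). Of 12 AZF1 regions, 9 overlapped FIE (33.4% over the whole list), 7 BPC1 (32.2%) and 8 the mark (23.1%). Of 35 H3K27me3 regions, 17 overlapped FIE (33.3%), 9 AZF1 (20.8%) and 7 BPC1 (18.2%). Of 34 FIE regions, 28 overlapped the mark (49.7%), 10 BPC1 (23.5%) and 9 AZF1 (27.8%), so the FIE regions of members met AZF1 about as often as FIE regions in general.

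Where proteins shared a gene, their summits were close together. The nearest FIE and BPC1 summits were 4 to 22 bp apart at the 9 genes with both, and the nearest FIE and AZF1 summits 1 to 22 bp apart at 8 genes. AZF1 and BPC1 summits were 0 to 5 bp apart at 7 genes, with a median of 2 bp. This closeness was general: over all genes the same distances were at most 25 bp at 72.2% of genes for FIE and BPC1, 66.0% for FIE and AZF1, and 88.8% for AZF1 and BPC1. AZF1 and BPC1 were both precipitated through a Myc tag, and Col plants gave a single input group. The part of this in their coincidence was not tested. FIE was precipitated through another tag and in another accession, for which an input group of its own was sequenced.

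Members that sit side by side did not always share a state. Of 11 pairs of members within 10 kb of each other, 7 pairs were in no list at all, among them NAC003 with NAC004 and NAC016 with NAC017. Being in no list is common, at 48.1% of members and 63.1% of all genes. Pairs of neighbouring genes in general were not counted, so nothing is read from these numbers. The only pair with the same assigned lists was NAC077 with NAC2 at AT5G04410, through their shared AZF1 region. In 3 pairs the states differed. NAC046 was in all 4 lists and its next gene NAC047, of the stress group, in none. NAC3 at AT3G15500 had FIE alone and the next gene NAC2 at AT3G15510 had FIE with the mark. NAC073 had the mark alone and NAC074 also FIE and BPC1.

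Few members stood near the 1 kb limit. Just inside it were NAC066 and NAC058 for FIE, at 764 and 595 bp, and just outside NAC028 and NAC069 at 1644 and 1674 bp. For AZF1 the last inside was NAC2 at AT5G04410, at 987 bp, followed by NAC076 at 38 bp, and the next outside were NAC003 at 2018 bp and NAC074 at 2116 bp. For BPC1 they were NAC066 at 780 bp and NAC076 at 40 bp inside, and NAC003 at 2015 bp and NAC083 at 2413 bp outside. For H3K27me3 they were NAC071 at 847 bp and NAC093 at 640 bp inside, and NAC3 at AT3G29035 at 1310 bp and NAC050 at 2338 bp outside.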

How the data were processed

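ChIP-seq was deposited as 4 lists of enriched regions. Per the submitters' processing notes, Bowtie2, bedtools and MACS2 2.1.1.20160309 were used on TAIR10; their settings, and how replicates were pooled, are not given in the sources used. The authors' files give per region a fold enrichment (a ratio over the control), −log10 p and −log10 q, and a score. Narrow lists add a summit.

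Gene names and extents came from RefSeq's TAIR10.1 table; strand and sequences were not used here. Its numbering was checked: shifting FIE, AZF1 or BPC1 summits by 1 or 2 kb in either direction lowered the share inside genes (FIE 41.6% at no shift and at most 32.8% shifted). Regions on the 5 nuclear chromosomes were assigned with pandas 2.3.3 in Python 3.11.15. The assignment code was tested on simulated data. Percentiles are within a list. Planned promoter motifs and protein relatives were not analysed here.

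Members, role lists and settings were chosen with earlier results of these data known. Named genes are members of all 4 lists or of FIE, those of highest fold, the role lists, and those nearest the 1 kb limit. NAC094 and others outside these were named after their values were seen.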

Additional observations from a re-analysis of the deposited data

How the results depend on the processing

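With genes extended by 500 bp or 2 kb, gene bodies alone, any overlap of narrow regions, single nearest genes, 50% of the gene body required in the mark, or 90 members by symbol or synonym, each count of assigned members stayed within 1.5 times its value. Keeping only regions above the median −log10 q of their list moved AZF1 from 12 to 3 members, BPC1 from 9 to 4, H3K27me3 from 32 to 21, FIE with H3K27me3 from 16 to 10, and all 4 lists from 6 to 1 (NAC067); FIE kept 14 of 21. With 50% of an FIE region required, 3 overlapped AZF1, 4 BPC1 and 28 H3K27me3. No paired analysis was possible because the lists carry no columns per replicate, and no replicate could be left out. Depth per sample is unknown.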
